A study of Mus musculus with 15 samples.

Results

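The 3 genes described here are Capn3, Capn1 and Capn5, members of the calpain family, out of 9669 genes that a probe with a single gene symbol names on the array. They were found through that symbol in the platform annotation, and each had 1 probe, so 3 of 20205 probes are concerned. Capn3 was chosen by its measured values in these arrays, since it had the largest difference between the dye orientations of all tested probes. Capn1 and Capn5 were added as its relatives with their values already known. The difference between the orientations is therefore given as a description for all 3, with no test.

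Calpains are cysteine proteases of the cytosol that calcium activates. They cut their substrates at a few sites rather than degrading them, and so alter cytoskeletal, signalling and membrane proteins. The classical enzymes pair a catalytic subunit, such as the product of Capn1 or Capn2, with a small regulatory subunit encoded by Capns1, and they are held in check by the inhibitor calpastatin, encoded by Cast. In the brain they are best known for cutting spectrin, receptors and other synaptic proteins. Calpain 3, the product of Capn3, is mainly a skeletal muscle enzyme that binds titin and needs no small subunit. Rodents also make splice forms of it in the eye lens, where calpains cut crystallins.

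On the arrays, brain RNA from homozygous O377 mice was set against that of wild-type mice. The series title names a mutant allele of the lens crystallin gene Crybb2, and the labels do not state the age, sex or strain of the animals. Each of the 15 arrays had 2 colours and held the same 2 sources, a pool of 4 wild-type brains and RNA described as coming from 5 mutant brains. The mutant RNA was labelled with Cy5 for 7 arrays, and for the remaining 8 with Cy3. No label says which brain lies on which array, so n counts arrays, the spread between them may be technical, and the wild-type pool leaves out the spread between control animals. As the sources are brains and not sorted cells, fewer cells of a type and less RNA per cell cannot be told apart.

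Each value is a log ratio of the 2 channels, taken as log2, and its direction is not stated. It could run Cy5 over Cy3, in which case a genotype difference turns its sign between the orientations. It could also run mutant over wild type, in which case a genotype difference keeps its sign and a dye effect turns. For each probe the dye-switching component is the mean with mutant RNA in Cy5 minus the mean with mutant RNA in Cy3, divided by 2. The shared component is the average of these means. Ratios carry no level, so none of the genes can be ranked by its amount of RNA. Per array, between 7843 and 10515 probes had a value, and interquartile ranges of the log ratio lay between 0.386 and 0.892. The Crybb2 probe was at -0.01 ± 0.07 (SE, n = 15 arrays) in the dye-switching component and at -0.000669 ± 0.07 in the shared component.

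Capn3 was measured on 15 of 15 arrays, and the sign of its log ratio followed the dye on each. With mutant RNA in Cy5 it stood at 1.96 on array 1, 2.35 on array 2, 1.92 on array 5, 1.77 on array 6, 2.20 on array 9, 0.89 on array 10 and 1.95 on array 13. With mutant RNA in Cy3 it stood at -1.53 on array 3, -1.71 on array 4, -1.38 on array 7, -0.85 on array 8, -1.96 on array 11, -1.56 on array 12, -2.42 on array 14 and -1.17 on array 15. The orientations did not overlap. Array 10 was closest to 0 among those with mutant RNA in Cy5, and array 8 among those with mutant RNA in Cy3, while array 14 lay farthest from 0 of all.

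The orientation means of Capn3 were 1.86 ± 0.47 (SD, n = 7) with mutant RNA in Cy5 and -1.57 ± 0.48 (SD, n = 8) with mutant RNA in Cy3. Its dye-switching component was 1.72 ± 0.12 (SE, n = 15), which is 3.29-fold if the values are log2, and 0 of 8058 tested probes had a larger one in size. If the values run Cy5 over Cy3, the positive sign means more Capn3 RNA in the mutant. If they run mutant over wild type, the same value is a difference between dyes. These readings cannot be told apart from the values. Leaving out any 1 array kept the component between 1.66 and 1.80.

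**Figure D1:**
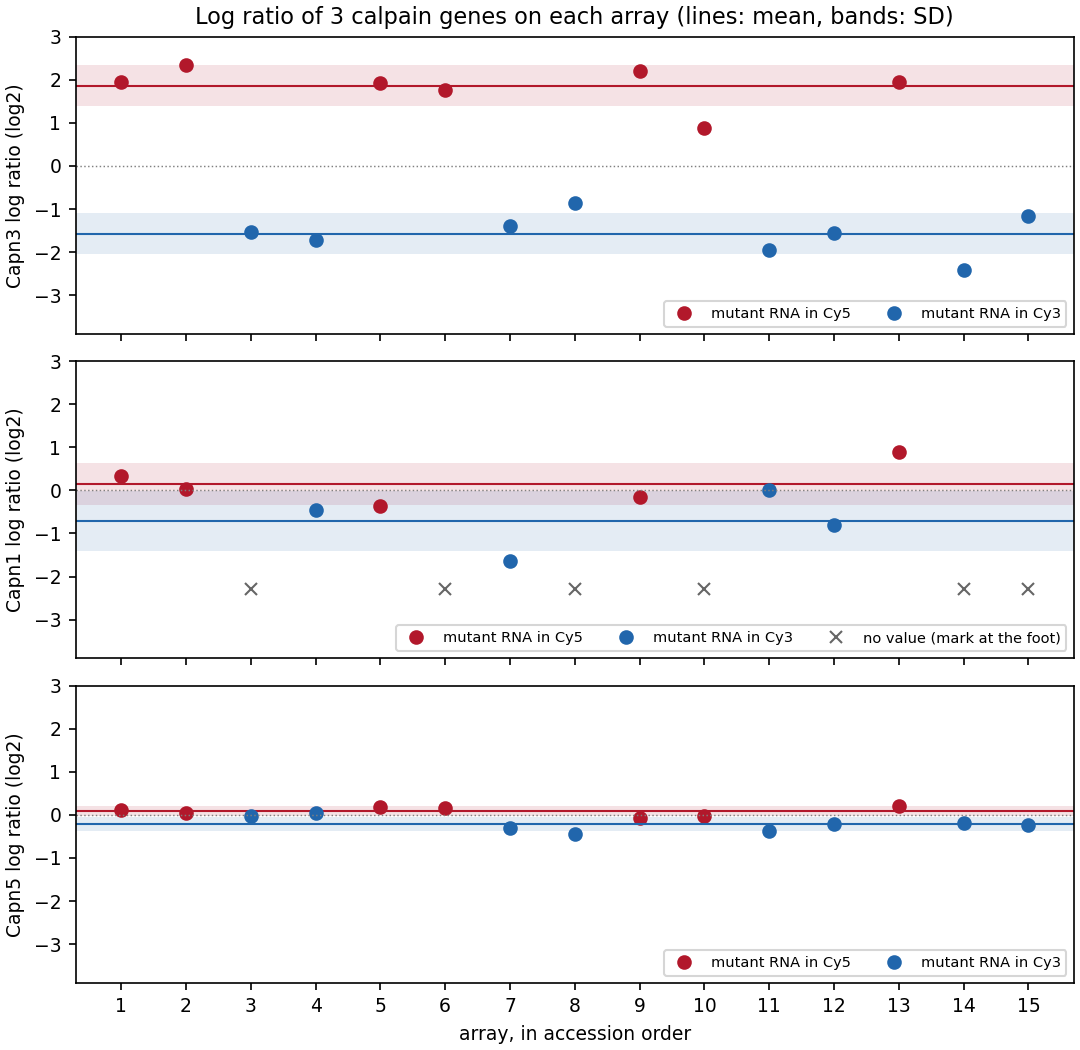
Log ratio (log2) of Capn3, Capn1 and Capn5 on arrays 1 to 15 in accession order, red for mutant RNA in Cy5 and blue for Cy3, with the mean of each orientation as a line, its SD as a band and arrays without a value marked by a cross whose height means nothing. Capn3 lies above 0 on all 7 red arrays and below 0 on all 8 blue ones, Capn5 stays between -0.44 and 0.21, and Capn1 has no value on 6 arrays.

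The place of Capn3 among the probes of each array restates the values that chose it, and on no array was it the most extreme probe. On the arrays with mutant RNA in Cy5, between 0.317% (array 13) and 8.2% (array 10) of measured probes had a higher log ratio, with a median of 1.12%. On those with mutant RNA in Cy3, between 0.985% (array 12) and 8.87% (array 8) had a lower one, with a median of 2.39%. Between 30 probes (array 13) and 856 probes (array 8) thus lay beyond it on a single array. Array 10, where Capn3 was lowest in its orientation, also had the widest interquartile range, 0.892, and its part in that value was not tested.

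Whether the Capn3 ratio was of like size in both orientations is a question its choice did not use. Its mean absolute log ratio was 1.86 with mutant RNA in Cy5 and 1.57 with mutant RNA in Cy3, a difference of 0.29 that a two-sided exact permutation test did not separate (p = 0.26, or 0.325 adjusted over the 3 genes). As the sign of Capn3 followed the dye on each array, its shared component is this difference divided by 2, so both tests ask the same. The shared component was 0.14 ± 0.12 (SE), limma adjusted p = 0.691, and its 95% interval reached from -0.10 to 0.39. It was 0.09 without array 8 and 0.23 without array 10, where its limma p was 0.0415 before and 0.582 after adjustment. If values run mutant over wild type, that component is the Capn3 difference between these 2 RNA sources. Its interval is over arrays, whose spread may be technical, and not over animals.

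Capn1 encodes the catalytic subunit of the classical calpain that low calcium activates. Its probe had no value on arrays 3, 6, 8, 10, 14 and 15, so 5 of 7 arrays with mutant RNA in Cy5 and 4 of 8 with mutant RNA in Cy3 were measured (two-sided Fisher's exact test p = 0.608, or 1 adjusted over the 3 genes). With mutant RNA in Cy5 it stood at 0.32 on array 1, 0.04 on array 2, -0.35 on array 5, -0.16 on array 9 and 0.89 on array 13. With mutant RNA in Cy3 it stood at -0.45 on array 4, -1.63 on array 7, 0.01 on array 11 and -0.80 on array 12. The orientations overlapped, since arrays 5 and 9 lay below array 11.

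The means of Capn1 were 0.15 ± 0.48 (SD, n = 5) and -0.72 ± 0.70 (SD, n = 4). Its dye-switching component of 0.43 ± 0.17 (SE, n = 9) had the sign of that of Capn3 and rested on array 7 more than on any other, falling to 0.28 without it. Of all tested probes, 2.26% had a larger one in size. That rank takes no account of precision. The SE of 0.17 stood against a median of 0.09 over all tested probes, and 98.5% of these had as many values as Capn1 or more. The shared component of Capn1 was -0.28 ± 0.17 (SE), limma adjusted p = 0.608, with a 95% interval from -0.67 to 0.10. It was -0.13 without array 7 and -0.41 without array 11. Mean absolute log ratios were 0.353 and 0.724 (two-sided exact permutation p = 0.325, also after adjustment). With values on both sides of 0 in each orientation, this measure also counts spread.

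Capn5 encodes a calpain without the calcium-binding domain that the classical enzymes carry at their end. Its probe was measured on 15 of 15 arrays. With mutant RNA in Cy5 its lowest value was -0.08 (array 9), its median 0.12 and its highest 0.21 (array 13). With mutant RNA in Cy3 its lowest was -0.44 (array 8), its median -0.23 and its highest 0.04 (array 4). It lay above 0 on 5 of 7 arrays of the first kind and below 0 on 7 of 8 of the second, and the orientations overlapped.

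The means of Capn5 were 0.09 ± 0.11 (SD, n = 7) and -0.22 ± 0.16 (SD, n = 8). Its dye-switching component was 0.15 ± 0.05 (SE, n = 15), a 1.11-fold ratio if the values are log2. Of all tested probes, 22.8% had a larger one in size. Capn5 was among the steadiest probes, since 99.1% of tested probes varied more within the orientations (residual SD 0.141, against a median of 0.337 over all probes). For Capn3 (0.476) and Capn1 (0.584) these shares were 24.9% and 15.7%. The shared component of Capn5 was -0.07 ± 0.05 (SE), limma adjusted p = 0.68, 95% interval from -0.17 to 0.04. Its mean absolute log ratios of 0.116 and 0.228 were not separated either (two-sided exact permutation p = 0.0911, or 0.273 adjusted over the 3 genes). They too count spread, since Capn5 had values on both sides of 0 in each orientation.

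The threshold was an adjusted p under 0.05. In the dye-switching component 0.645% of all tested probes passed it by limma, 0.335% on the positive and 0.31% on the negative side. No call is given there for the 3 genes, since Capn3 was selected on this contrast and the others with their values known. Just inside the threshold stood Txnip, with a component of 0.26, and just outside it Morf4l1, at -0.28. Orientations without overlap held for 0.906% of tested probes. Capn3 was among them, which follows from its selection, so nothing is read from it. In the shared component 0 of the 3 genes passed, as did 0 of 8058 probes (0%), by limma. Without adjustment, 765 probes and none of the 3 genes had a p under 0.05 in this fit, and the smallest adjusted p was 0.288. Some alternatives given at the end brought the unadjusted p of Capn3 or Capn1 under 0.05.

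**Figure D2:**
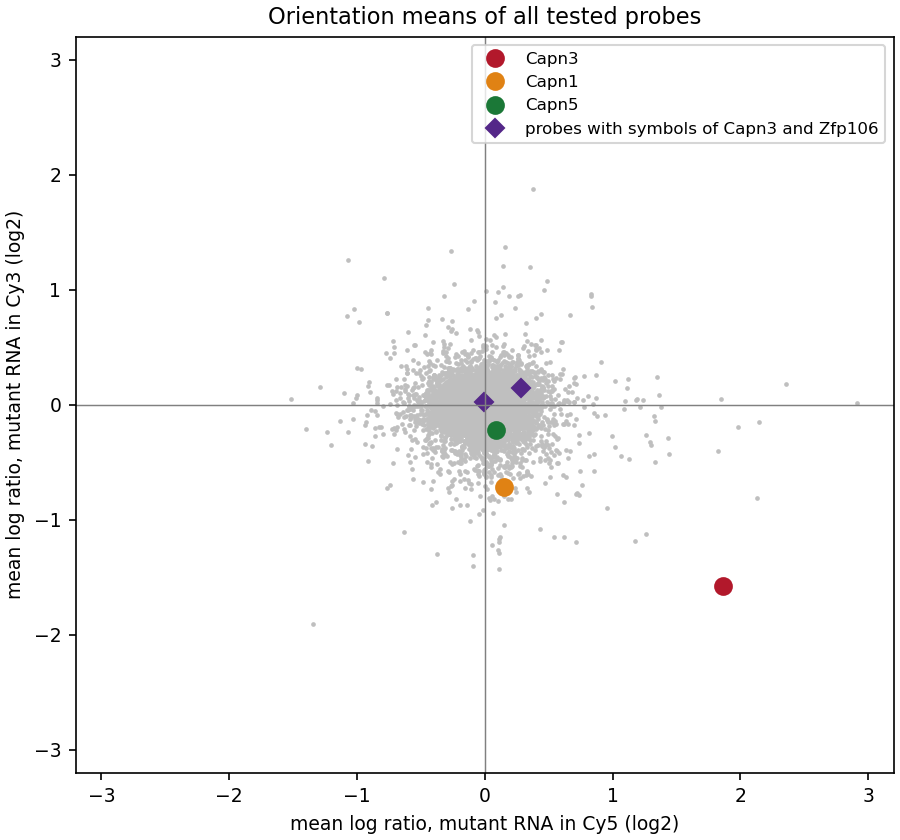
Mean log ratio (log2) of each of the 8058 tested probes with mutant RNA in Cy5 (horizontal) and in Cy3 (vertical), with the 3 genes and the 2 tested probes that carry the symbols of both Capn3 and Zfp106 marked. Capn3 lies alone at the lower right, at 1.86 and -1.57, and the other marked probes lie in or at the edge of the cloud around 0.

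Deviations from the orientation means were compared between the genes to see whether they moved together from array to array. Over the 15 arrays, deviations of Capn3 and Capn5 had a Pearson correlation of -0.14 and a Spearman correlation of -0.31. Over the 9 arrays with a Capn1 value they were -0.54 and -0.53 for Capn3 with Capn1, and 0.23 and 0.38 for Capn1 with Capn5. The means were those over all values of each gene, so Capn3 and Capn5 were not centred anew on these 9 arrays. All these correlations are descriptions over arrays that share RNA sources, normalisation and spread, with no test.

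Capn3 appears on the array in other probes too, but never alone. The annotation gives 3 further probes 2 symbols each, those of Capn3 and Zfp106, an RNA-binding zinc finger gene that is the next gene after Capn3 in the mouse reference. The annotation does not say which of these RNAs they detect, so they were not counted as Capn3. The first of them had no value on any array. The second ranged with mutant RNA in Cy5 from -0.50 to 0.82, median -0.22, and with mutant RNA in Cy3 from -1.23 to 0.36, median 0.16. The third ranged from -0.56 to 0.78, median 0.39, and from -0.36 to 0.56, median 0.20.

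Neither of these shows the pattern of the Capn3 probe. Their dye-switching components were -0.02 ± 0.12 (SE), 95% interval from -0.28 to 0.25, and 0.07 ± 0.09, interval from -0.12 to 0.26, with limma adjusted p = 0.983 and 0.845. The difference from the Capn3 probe was not tested. In the shared component they were at 0.01 ± 0.12 and 0.22 ± 0.09 (adjusted p = 0.989 and 0.491). The single-symbol probe of Zfp106 had 14 values and a dye-switching component of -0.10 ± 0.17, adjusted p = 0.883.

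Genes near Capn3 on its chromosome were looked up in the annotation. Counting outward to the third measured gene on each side, these were Tmem87a, Pla2g4f and Ehd4 before it and Zfp106, Lrrc57 and Ttbk2 after it. Among their products are a cytosolic phospholipase (Pla2g4f), an endosomal recycling protein (Ehd4) and a tau tubulin kinase (Ttbk2). Pla2g4f was at -0.05 ± 0.05 (SE) in the dye-switching component, Ehd4 at -0.03 ± 0.08 on its tested probe and Ttbk2 at 0.12 ± 0.10, with limma adjusted p of 0.812, 0.945 and 0.741. With Zfp106, 0 of the 4 tested genes passed, and with 0.645% of all tested probes past the threshold that count says little of the region. Tmem87a and Lrrc57 had too few values to be tested.

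Of the rest of the calpain system, the catalytic relatives and partners were measured thinly. Of 16 genes in the list of calpains, small subunits and calpastatin, 9 had a probe with a single symbol and 6 were tested, the 3 genes above with Capn12, Capn15 and Cast. Capn2, the other classical catalytic subunit in brain, had a value on array 7 only (-1.88). Capns1, the small subunit of both classical enzymes, had values on array 6 (0.10) and array 7 (0.64). Capn10, an atypical calpain, had 8 values from -0.26 to 0.98 and too few with mutant RNA in Cy3 to be tested. Of the classical enzymes and their small subunit, only Capn1 thus had enough values for a fit.

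Capn12, a calpain known from skin, had 9 values and a dye-switching component of 0.20 ± 0.23 (SE), limma adjusted p = 0.821. Capn15, the relative of the fly small optic lobes gene, was measured on 15 arrays and stood at 0.03 ± 0.07, adjusted p = 0.933. Its values ran from -0.47 to 0.50 with mutant RNA in Cy5 and from -0.41 to 0.24 with mutant RNA in Cy3. Cast, the inhibitor, had 13 values and stood at 0.04 ± 0.11, adjusted p = 0.934, with medians of -0.10 and 0.06 in the orientations. Their 95% intervals ran from -0.30 to 0.70, from -0.13 to 0.18 and from -0.18 to 0.27.

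All 6 tested probes of the calpain list had a positive dye-switching component, with a median of 0.18 and a range from 0.03 to 1.72. Of Capn12, Capn15 and Cast, 0 passed the threshold, where 0.645% of all tested probes did. Over all tested probes, 4253 of 8058 were positive and the median was 0.01. Of these 6, 3 are the genes chosen with their values known, so its sign is no independent evidence. In the shared component 3 of the 6 were positive, the median was -0.02 and 0 passed.

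**Figure D3:**
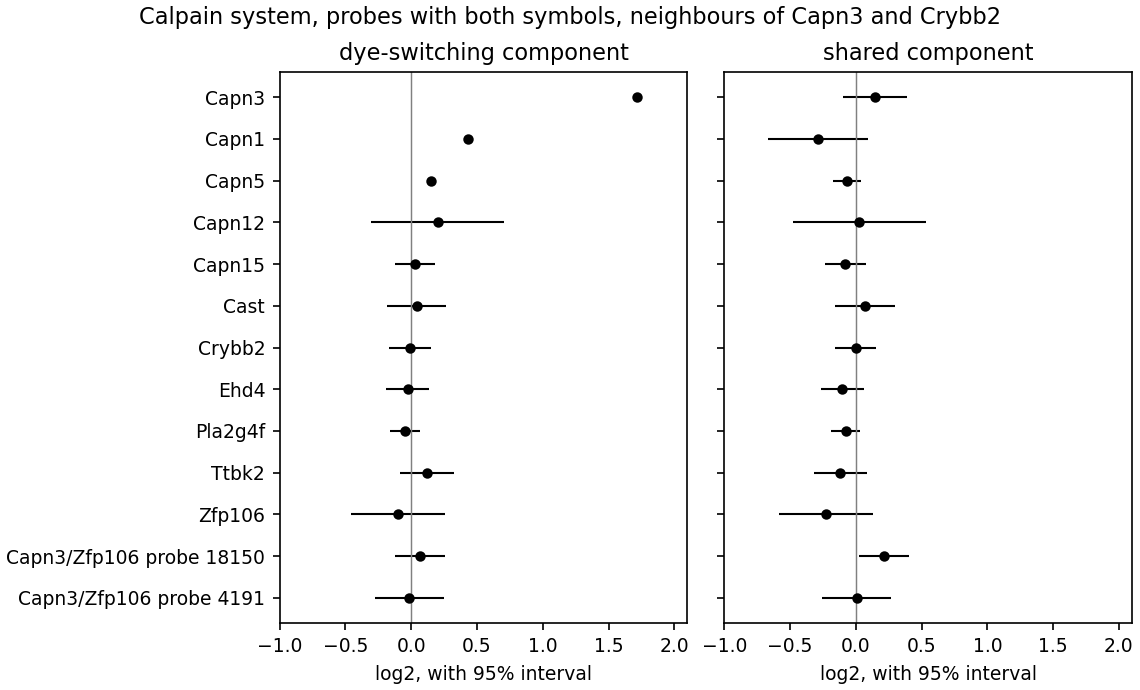
Dye-switching (left) and shared (right) component in log2, with unadjusted 95% intervals from limma (none on the left for Capn3, Capn1 and Capn5, whose choice used that contrast), for the tested probes of the calpain system, of Crybb2, of the genes near Capn3 and of the 2 probes with both symbols. Capn3 stands at 1.72 on the left, and the next highest, Capn1, at 0.43. On the right all points lie between -0.28 and 0.22.

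Known targets of calpains in neurons were measured in part. Of 38 genes listed, 14 were tested with 16 probes, and the median dye-switching component was -0.0014. On either side 0 passed, a count too small to set apart from the 0.645% of all tested probes that did. The extremes were the growth cone gene Gap43 at -0.19 ± 0.07 (SE) and the intermediate filament gene Vim at -0.09 ± 0.08, and at the other end the dendritic cytoskeleton gene Map2 at 0.09 ± 0.11 and the kinase gene Src at 0.24 ± 0.27. Their limma adjusted p-values ran from 0.35 for Gap43 to 0.822 for Map2. Transcript ratios say nothing of cleavage, which acts on the proteins.

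Muscle partners of calpain 3 were sparse in the arrays. Of 17 genes listed, 5 were tested with 6 probes, with a median of 0.08. All 6 were positive, where 4253 of 8058 tested probes were. The 6 probes stand for 5 genes and the list was chosen with earlier results known, so nothing is read from their sign. On either side 0 passed, a count too small to set apart from the 0.645% of all tested probes that did. The lowest were both probes of Ahnak, which encodes a large membrane-linked scaffold, at 0.04 ± 0.08 (SE) and 0.06 ± 0.11. The highest were the annexin gene Anxa2 at 0.28 ± 0.24 and the muscle Z-disc gene Ldb3 at 0.28 ± 0.31, with limma adjusted p = 0.767 and 0.816.

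Among genes that bind or move calcium, the signal that activates calpains, 32 of 50 were tested with 38 probes. There 1 passed with a positive and 0 with a negative component, against 0.335% and 0.31% of all tested probes, and the median was -0.01. These counts are too small to set apart from those shares. The probe that passed was that of S100a5, which encodes a calcium-binding protein. It stood at 0.88 ± 0.17 (SE), limma adjusted p = 0.0372, with 12 values. Leaving out array 2, 4, 6, 9, 10, 11, 12 or 13 alone raised the adjusted p of S100a5 above 0.05, up to 0.0862. So did 4 of 12 other alternatives, over which the adjusted p ran from 0.00629 to 0.161. The next highest was Stim1, the calcium sensor of the endoplasmic reticulum, at 0.30 ± 0.11 (adjusted p = 0.386). The lowest were Letm1, of the inner mitochondrial membrane, at -0.42 ± 0.31 (adjusted p = 0.722) and S100b, of astrocytes, at -0.15 ± 0.07 (adjusted p = 0.532).

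A list of other cysteine proteases and their inhibitors, which also held the serine protease gene Ctsa, was tested with 8 probes of 8 genes out of 27. Of these probes 0 passed, too few to set apart from the 0.645% of all tested probes that did. Their median was -0.05. The cystatin genes Cst6 and Cst3, which encode inhibitors of cathepsins, were lowest at -0.28 ± 0.13 (SE) and -0.10 ± 0.16. The inhibitor gene Cstb and Ctsa, which encodes a lysosomal serine carboxypeptidase, were highest at 0.06 ± 0.07 and 0.25 ± 0.13, with limma adjusted p-values between 0.532 and 0.878 for the 4. In the shared component 0 probes passed in any of these lists.

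Markers of tissues where Capn3 is known to be active were checked beside it. Of the skeletal muscle list 8 of 20 genes were tested, with a median dye-switching component of -0.03 and a range from -0.21 to 0.33. Of their probes 0 passed, too few to set apart from the 0.645% of all tested probes that did. Of lens genes other than crystallins 2 of 12 were tested, at -0.07 both, and of crystallins 7 of 19, from -0.11 to 0.03. Of melanocyte genes 1 of 8 was tested, at -0.03. The summed level of these markers is not measurable from ratios, and their part in the Capn3 values was not tested.

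Markers of brain cell types were checked in the same way. Tested probes numbered 9 for neurons, 5 for astrocytes, 3 for oligodendrocytes, 3 for microglia, 5 for endothelium and pericytes and 4 for choroid plexus and meninges, with list medians from -0.14 (endothelium and pericytes) to 0.05 (choroid plexus and meninges). Of these 29 probes, 1 passed, a count too small to set apart from the 0.645% of all tested probes that did. It was that of the neuronal surface gene Thy1 at -0.53 ± 0.11 (SE, limma adjusted p = 0.0276), which was singled out after its value was seen. The neuronal list as a whole had a median of 0.02, with 6 of 9 tested probes positive. Leaving out array 1, 2, 3, 4, 9, 10, 11 or 12 alone raised the adjusted p of Thy1 above 0.05, up to 0.0649. So did 3 of 12 other alternatives, over which the adjusted p ran from 0.0154 to 0.18. Of 17 neuronal marker probes 15 had a value on at least 1 array, and log ratios cannot show how strongly a marker was expressed. The part of these markers in the Capn3 values was not tested.

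Genes whose array values came closest to those of Capn3 were found by the root mean square difference over shared arrays, among 4190 probes with a single symbol and at least 12 values. Serpina12, an adipokine of the serpin family, was closest (0.863 over 14 arrays), followed by the stress transcription factor gene Xbp1 (0.927 over 15), the endosomal GTPase gene Rab9 (1.12 over 15), the GPI transamidase gene Pigk (1.15 over 14) and the ATP synthase gene Atp5g2 (1.16 over 15). The median over all candidates was 1.80, and Capn3 itself had a root mean square value of 1.77. None reached its size, with orientation means of 1.18 and -1.19 for Serpina12 and 0.96 and -0.90 for Xbp1. Pigk was uneven, at 1.33 and -0.50.

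The closest to Capn3 with its sign turned was the nucleotidase gene Nt5c2, with a difference of 0.729. The lipase gene Lpl (0.986), the prohormone convertase chaperone gene Scg5 (0.994), the interferon-induced gene Ifi27 (1.02) and Smim7 (1.22) followed. Both measures of likeness count the change of sign with the dye. Within the orientations, Pearson correlations of the deviations of these 10 genes with those of Capn3 ran from -0.44 (Ifi27) to 0.27 (Pigk), and without array 10 from -0.50 (Ifi27) to 0.33 (Rab9). Without array 10 the means were taken anew over the shared arrays, so for genes with blank values the centring changed too. That array moved single values much, that of Nt5c2 from -0.39 to -0.10 and that of Rab9 from -0.12 to 0.33.

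**Figure D4:**
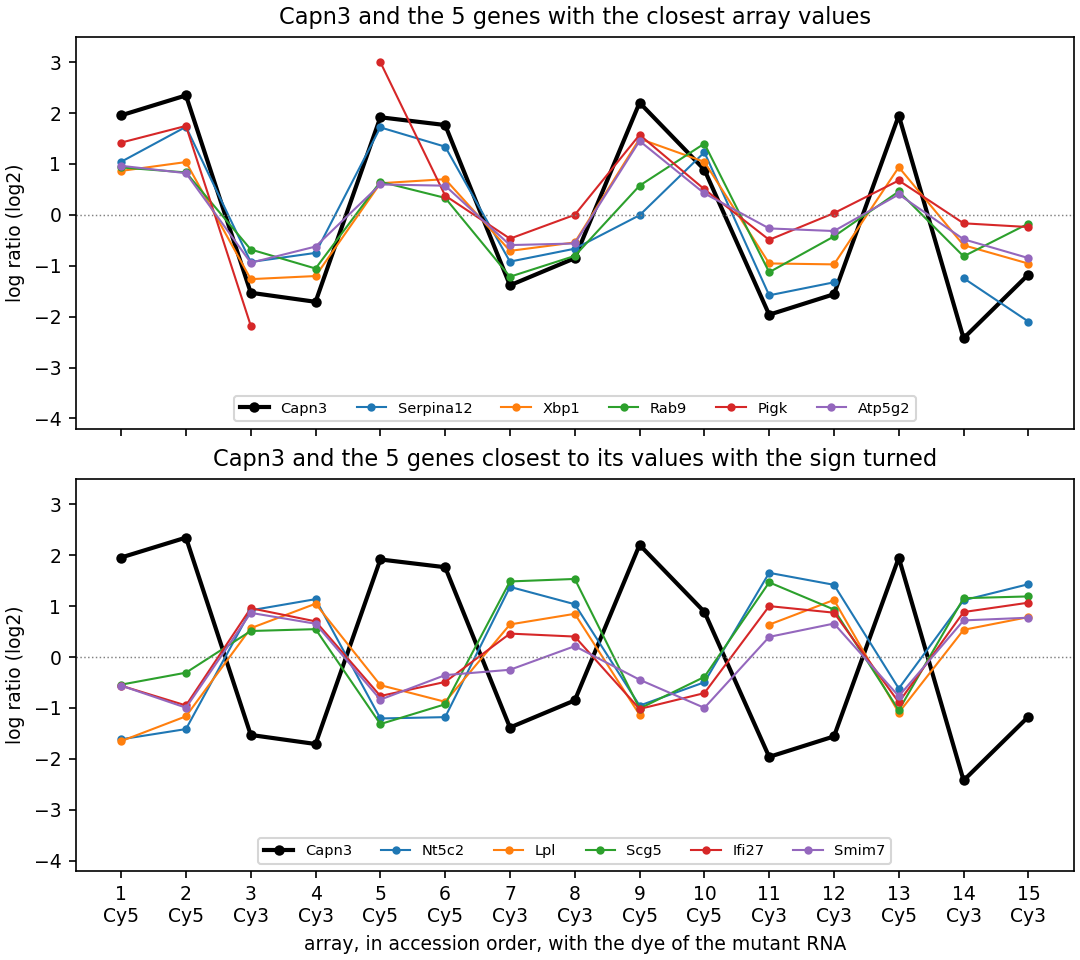
Log ratio (log2) by array, in accession order with the dye of the mutant RNA below, of Capn3 (black) with the 5 genes closest to it (top) and the 5 closest to its values with the sign turned (bottom). Gaps are arrays without a value. Capn3 changes side with the dye on each array, and on array 10 Rab9 (1.40), Serpina12 (1.23) and Xbp1 (1.04) are higher than Capn3 (0.89).

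Another set of genes ranked highest when deviations within the orientations were compared with those of Capn3. The highest Pearson correlations of deviations were those of Cavin4, a caveolar coat gene of muscle (0.90 over 12 arrays), Tmem179b (0.85 over 14), the flagellin receptor gene Tlr5 (0.83 over 14), Mapk1ip1 (0.82 over 12) and the tubulin gene Tubb4b (0.81 over 15). Without array 10, with the means again taken anew over the shared arrays, they fell to between 0.68 and 0.77. The 4190 correlations ran from -0.84 to 0.90 with a median of -0.02, and 40 exceeded 0.7. The orientation means of these 5 genes lay between -0.23 and 0.23, far from those of Capn3. Cavin4 had no value on arrays 3, 8 and 14, which include the lowest and the highest Capn3 value with mutant RNA in Cy3. These 5 genes were picked as the highest of 4190, so the size of their correlations is no independent evidence. The points share arrays and normalisation, and no test was made.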

How the data were processed

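For each probe and array the deposited table holds 1 log ratio, taken here as log2. The largest value in size, 12.3, exceeds 11.1, the natural log of the largest ratio of a 16-bit scanner. That bound is for raw ratios and the earlier processing is not known, so the base remains an assumption. Scale, centring method and direction are not given in the sources used here. Column medians lay between -0.00618 and 0.0165. Blank values and the rule behind them were left as deposited. Probes were named through the platform annotation, with symbols updated to GRCm38.p6 by gene identifier (11723 probes with 1 symbol, 806 with several, 7676 with none). Coordinates are left out because the arrays' build is not known here.

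Probes with at least 4 values in each orientation were fitted with limma (version 3.58.1, under R 4.3.3), with orientation as the only term and the Benjamini-Hochberg adjustment over all 8058. The fit was tested on simulated data. Exact permutation tests enumerated every assignment of arrays. Genes and lists were chosen with earlier results of these data known. Named are every gene of the calpain list that had a value, the 2 highest and 2 lowest probes of 4 lists, the 5 genes most like Capn3 by each of 3 measures, up to 3 measured neighbours a side, and Crybb2. Txnip, Morf4l1 and Thy1 fall outside that rule.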

Additional observations from a re-analysis of the deposited data

Results flagged for a closer look

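Of 27 sets of array values of named probes within an orientation, 5 held an array far from the others. This was judged by its gap to the next value over the range of the set. About 1 in 20 would be flagged among independent sets. These sets share arrays, so nothing is read from the count. Capn3 stood at 0.888 on array 10, where the next lowest value with mutant RNA in Cy5 was 1.77. Zfp106 stood at -0.992 on the same array, next to -0.285. Capn10 stood at 0.982 on array 2, where its other values with mutant RNA in Cy5 reached -0.03. A probe with the symbols of both Capn3 and Zfp106 stood at -1.23 on array 8, the array where Capn3 was nearest 0 in that orientation, and its next lowest value was 0.07. Pla2g4f stood at 0.255 on array 14, next to 0.01.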

How the results depend on the processing

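The dye-switching and shared components of Capn3, Capn1 and Capn5 kept their sign under every alternative that gave a value, and no shared component passed the threshold. Over the other settings the dye-switching component ran from 1.65 to 1.80 for Capn3, 0.35 to 0.52 for Capn1 and 0.15 to 0.18 for Capn5, and with each array left out from 1.66 to 1.80, 0.28 to 0.55 and 0.14 to 0.17. The shared component of Capn3 ran from 0.02, with arrays scaled to equal spread, to 0.21, that of Capn1 from -0.39 to -0.25 and that of Capn5 from -0.08 to -0.04. With each array left out they ran from 0.09 to 0.23, -0.41 to -0.13 and -0.08 to -0.05. Before adjustment, the limma p of the shared component of Capn3 was 0.0157 with robust regression and 0.0415 without array 10. That of Capn1 was 0.0441 with robust regression, 0.0387 without array 11 and 0.0464 without array 13. Capn1 had no value where 6 arrays of each orientation were required. The count of 52 probes past the threshold in the dye-switching component rose to 204 with robust regression and fell to 32 on arrays 4 to 15, which are fewer arrays, and it lay between 36 and 48 with each array left out. In the shared component the count rose from 0 to 107 with robust regression. The cause of the rises was not tested. Correlations without array 10, and the alternatives for S100a5 and Thy1, were chosen after seeing the data. Blank values and the number of arrays limit the precision, and a blank cannot be told from a dim spot.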
